A study of Mus musculus with 9 samples.

Results

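Insulin and insulin-like growth factor (IGF) signalling was followed through 9 genes, namely Igf1, Insr, Igf1r, Igf2r, Igfbp3, Irs1, Irs2, Akt2 and Foxo1, in podocytes sorted from diabetic and normal mice. The members were all probe sets whose platform annotation gives exactly 1 of these symbols, which made 25 of the 45037 probe sets tested and 9 of the 18193 named genes. The diabetic group was 5 OVE-GFP mice (OVE26 diabetic mice crossed to a line with green fluorescent podocytes) and the normal group was 4 FVB mice whose genotype is labelled wild type, all on the FVB background and aged 3 to 4 months. In OVE26 mice a calmodulin transgene damages pancreatic beta cells early in life, so that low insulin and high blood glucose come together. The labels name neither the reporter of the FVB mice nor the sex or the insulin treatment of any mouse. Each mouse gave 1 sort of trypsin-dissociated glomeruli and 1 array of amplified RNA.

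Insulin and IGF1 bind related receptor tyrosine kinases, the insulin receptor and the IGF1 receptor, which phosphorylate the adaptors IRS1 and IRS2. The adaptors recruit PI3-kinase, AKT is then activated, and AKT phosphorylates FOXO transcription factors and keeps them out of the nucleus. Podocytes are known to respond to insulin, and mice whose podocytes lack the insulin receptor develop albuminuria.

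All values below are log2 intensities of a probe set, and differences are OVE26 minus FVB on that scale. A probe set has its own brightness, so levels are compared between arrays and not between probe sets. A probe set whose group mean lay below 3.31, the mean 25th percentile of the arrays, is called dim in that group. By limma over all probe sets, 0 of the 25 member probe sets passed an adjusted p of 0.05 in either direction, whereas 0.195% of all probe sets were called higher and 0.0755% lower in OVE26 arrays. Those background calls, 88 higher and 34 lower, depended on single arrays: they were 323 and 101 without FVB 2, 1 and 0 without FVB 1, and 0 in both directions without OVE26 3, FVB 3 or FVB 4. An unadjusted p under 0.05 was reached by 3 of the 25 (12.0%), against 13.7% of all probe sets. The groups did not overlap for 2 of the 25 (8.0%), against 5.45% of all probe sets. The median difference over the 25 was 0.03, with 14 above 0 and 11 below, and the median over all probe sets was -0.01.

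Sequence is shown for the adaptor genes Irs1 and Irs2, because Irs1 had the lowest difference of the 25 probe sets and Irs2 the widest split between OVE26 arrays among members that were well above the dim level. The promoter windows run from 250 bases before to 50 bases after the gene start in RefSeq on build GRCm38.p6, 5′ to 3′ on the gene's own strand. For Irs1 the window is chr1:82291390-82291689 (minus strand) and for Irs2 it is chr8:11008880-11009179 (minus strand). Capitals mark CACGTG, the E-box read the same on both strands, and TGTTTTG, the core of an insulin response element that FOXO factors are known to bind.
Irs1: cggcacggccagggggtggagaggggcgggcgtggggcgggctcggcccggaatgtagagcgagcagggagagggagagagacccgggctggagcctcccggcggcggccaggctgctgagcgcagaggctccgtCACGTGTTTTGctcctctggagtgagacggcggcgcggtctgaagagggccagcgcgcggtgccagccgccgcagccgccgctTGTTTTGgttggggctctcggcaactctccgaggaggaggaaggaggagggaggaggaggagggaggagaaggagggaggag
Irs2: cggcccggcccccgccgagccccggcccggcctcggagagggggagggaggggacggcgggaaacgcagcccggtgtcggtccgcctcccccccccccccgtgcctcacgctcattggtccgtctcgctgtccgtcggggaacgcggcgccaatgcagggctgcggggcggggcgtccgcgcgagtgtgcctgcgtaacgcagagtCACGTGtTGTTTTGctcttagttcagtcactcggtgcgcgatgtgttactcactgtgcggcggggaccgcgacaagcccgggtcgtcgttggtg

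In both windows the E-box stands next to a TGTTTTG core on the same strand. In the Irs1 window the E-box begins at base 136 and overlaps the core that begins at base 140, and another core begins at base 219. In the Irs2 window the E-box begins at base 207 and the core at base 214, with 1 base between them. The longest runs that the windows share are 10 bases long, GTCACGTGTT and TGTTTTGCTC. Each run, on either strand, is in 25 of the 32851 promoter windows of the table (0.0761%). The runs were picked because both windows hold them, so this share does not say how unusual the match is. The length of run that other pairs of windows share was not examined. CACGTG alone is in 7.15% and TGTTTTG, counted on both strands, in 6.28% of all windows, and the FOXO consensus GTAAACA (3.65% of windows, both strands) is in neither adaptor's window. These matches describe the letters of the reference strain and were looked for after the expression values had been seen.

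Irs1, the docking protein through which the insulin and IGF1 receptors reach PI3-kinase, had the lowest difference among the members. Its only probe set, 1423104_at, read 6.87, 7.36, 7.26, 7.13 and 7.20 in OVE26 arrays 1 to 5, against 7.70, 7.38, 7.70 and 7.92 in FVB arrays 1 to 4. Every OVE26 array lay below every FVB array, and the closest pair, OVE26 2 and FVB 2, differed by little. The OVE26 mean was 7.17 ± 0.19 (SD, n = 5), against an FVB mean of 7.67 ± 0.22 (SD, n = 4). The difference was -0.51 (0.704-fold, SE 0.14, 95% interval -0.82 to -0.19), which did not pass over all probe sets (limma, adjusted p = 0.161). Its exact permutation p, 2-sided over the 126 ways of splitting the arrays into 5 and 4, was 0.00794, the smallest the design allows, for a gene singled out among 25 probe sets after its values were seen. Over 19 alternatives to the processing it stayed between -0.60 and -0.43, with adjusted p from 0.0852 to 0.359 by limma. The labels give no sex, but Xist lay above the Y-linked genes in 3 OVE26 arrays and 1 FVB array. Within these arrays Irs1 differed by -0.11, and by -0.77 within the other 2 OVE26 and 3 FVB arrays. With that sex measure as a covariate the difference was -0.51 (limma, adjusted p = 0.25).

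Irs2, the other main adaptor and a gene that FOXO1 is known to induce in mouse liver, was spread widely among the OVE26 arrays. Probe set 1443969_at read 6.48, 7.29, 6.30, 7.99 and 6.11 in OVE26 arrays 1 to 5, against 6.60, 6.60, 6.88 and 7.19 in FVB arrays 1 to 4. Arrays OVE26 2 and OVE26 4 lay above all FVB arrays and the other 3 OVE26 arrays below all of them. OVE26 arrays averaged 6.83 ± 0.79 (SD, n = 5), against 6.82 ± 0.28 for FVB arrays (SD, n = 4), a difference of 0.02 with a 95% interval of -0.79 to 0.82 (limma, adjusted p = 0.991). The interval leaves room for a change of either sign, and without OVE26 2 and OVE26 4 together the difference was -0.52 (limma, adjusted p = 0.267). Irs1 read 7.36 in OVE26 2, its highest value in the group, and 7.13 in OVE26 4, its second lowest.

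**Figure D1:**
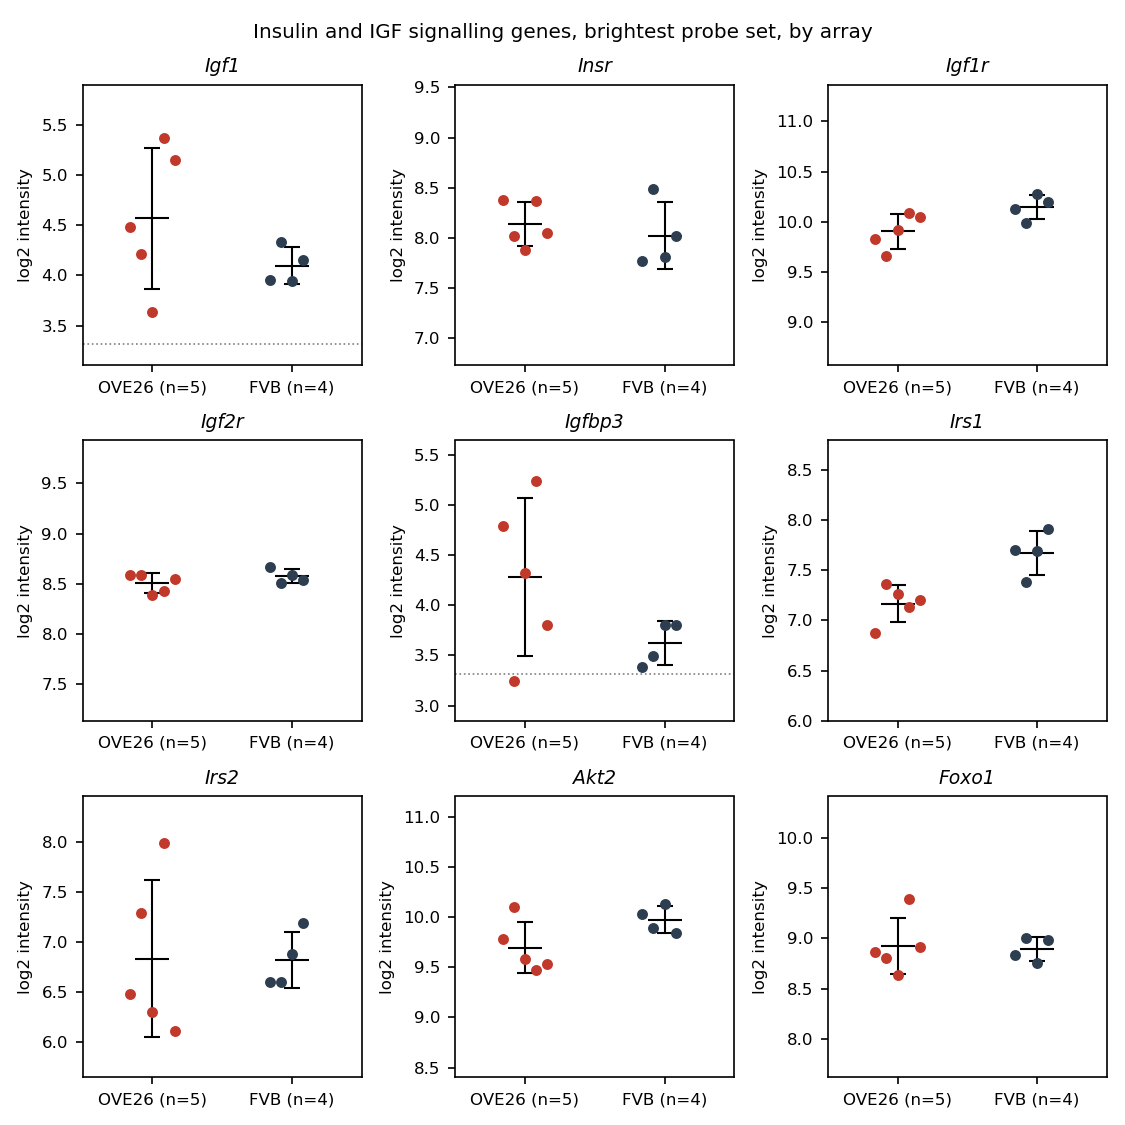
Log2 intensity of the brightest probe set of each of the 9 genes (vertical axis, 2.8 log2 units in every panel) in OVE26 arrays (left, red, n = 5, drawn from left to right as arrays 1 to 5) and FVB arrays (right, dark, n = 4). Points are arrays, bars the mean ± SD, and the dotted line the dim level of 3.31. The groups are apart for Irs1, and OVE26 arrays of Igf1, Igfbp3 and Irs2 are spread over a wider range than FVB arrays.

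Igf1, the secreted ligand of the IGF1 receptor, was near or below the dim level. Its brightest probe set, 1452014_a_at, read 4.49, 4.21, 3.64, 5.37 and 5.15 in OVE26 arrays 1 to 5, against 3.96, 4.33, 3.95 and 4.16 in FVB arrays 1 to 4. Arrays OVE26 1, 4 and 5 lay above all FVB arrays and OVE26 3 below them. The difference was 0.47 (SE 0.32, 95% interval -0.24 to 1.18; limma, adjusted p = 0.568), or 0.27 without OVE26 4 and 0.71 without OVE26 3. The other 3 probe sets were dim in both groups, with OVE26 means of 2.20, 2.09 and 1.77 and FVB means of 1.90, 1.58 and 1.45, so no fold is given for them. Among these, 1419519_at had the smallest p of the 25 probe sets, at an unadjusted p of 0.0044 and an adjusted p of 0.155 by limma, and 1437401_at was the other probe set without overlap between the groups. All 4 probe sets of Igf1 had a positive difference. Macrophages and mesangial cells can make IGF1, and their markers are given with those of other cells below. The mean of their centred marker values, explained below, was highest of all arrays in OVE26 3 (macrophage 0.68, mesangial and smooth muscle 0.61). OVE26 3 had the lowest reading of 1452014_a_at. In OVE26 4 and OVE26 5, with the highest readings, these means were 0.49 and 0.30 for macrophages and -0.05 and 0.02 for mesangial cells. The part of these cells in the Igf1 values was not tested.

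Insr, the insulin receptor, was well above the dim level in both groups. Its brightest probe set, 1421380_at, read 8.37, 8.02, 7.88, 8.37 and 8.05 in OVE26 arrays 1 to 5, against 7.77, 8.49, 7.81 and 8.02 in FVB arrays 1 to 4. The groups overlapped, with FVB 2 the highest array of all 9. The difference was 0.12 (95% interval -0.28 to 0.51; limma, adjusted p = 0.832), and with 1 array left out it lay between 0.03 (without FVB 1) and 0.27 (without FVB 2). The other 2 probe sets gave 0.17 (95% interval -0.14 to 0.47; limma, adjusted p = 0.65) and 0.18 (95% interval -0.17 to 0.53; limma, adjusted p = 0.672). All 3 Insr probe sets were thus on the positive side by small amounts that did not pass.

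Igf1r, the receptor for IGF1, was also well above the dim level and leaned the other way. Its brightest probe set, 1428967_at, read 9.83, 9.66, 9.92, 10.09 and 10.05 in OVE26 arrays 1 to 5, against 10.12, 9.99, 10.28 and 10.20 in FVB arrays 1 to 4. Arrays OVE26 4 and OVE26 5 lay above FVB 2 and the other OVE26 arrays below every FVB array. The difference was -0.24 (95% interval -0.51 to 0.03; limma, adjusted p = 0.424). Of the other 4 probe sets, 1452982_at differed by -0.30, 1452108_at by -0.04 and 1426565_at by -0.05 (limma, adjusted p from 0.452 to 0.931). The dimmest, 1446303_at, ran against the rest, with an OVE26 mean of 4.60 ± 0.37 (SD, n = 5) against an FVB mean of 4.15 ± 0.17 (SD, n = 4), a difference of 0.45 (limma, unadjusted p = 0.0394, adjusted p = 0.336).

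Igf2r, the mannose 6-phosphate receptor that takes IGF2 to lysosomes and clears it, varied least. Probe set 1424112_at read 8.59, 8.58, 8.39, 8.42 and 8.55 in OVE26 arrays 1 to 5, against 8.67, 8.51, 8.59 and 8.54 in FVB arrays 1 to 4. The groups overlapped and all 9 arrays lay close together. Its difference was -0.07 (95% interval -0.29 to 0.15; limma, adjusted p = 0.813), and the other probe set, 1424111_at, gave -0.06 (95% interval -0.29 to 0.17; limma, adjusted p = 0.849).

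Igfbp3, a secreted protein that binds IGFs and holds them away from their receptor, was close to the dim level in most arrays and high in OVE26 4. Probe set 1458268_s_at read 4.79, 3.25, 4.32, 5.24 and 3.80 in OVE26 arrays 1 to 5, against 3.38, 3.49, 3.80 and 3.80 in FVB arrays 1 to 4. OVE26 1, 3 and 4 lay above all FVB arrays and OVE26 2 below them. The difference was 0.66 (SE 0.35, 95% interval -0.13 to 1.45; limma, adjusted p = 0.456), or 0.42 without OVE26 4. Letters in this probe set's name mark it as able to read transcripts of more than 1 gene. The names of Foxo1 1416983_s_at and Akt2 1424480_s_at hold the same letters. The other probe set, 1423062_at, read 3.88, 2.97, 3.60, 5.79 and 3.30 in OVE26 arrays, against 2.95, 3.44, 3.18 and 3.57 in FVB arrays. Its FVB mean of 3.28 was dim, and OVE26 2 and OVE26 5 also read below 3.31, so no fold is given. The difference was 0.62 (95% interval -0.47 to 1.72; limma, adjusted p = 0.636), and without OVE26 4 it was 0.15.

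Akt2, the AKT form most tied to glucose uptake in insulin target tissues, was lower on average by a small amount. Its brightest probe set, 1421324_a_at, read 9.78, 10.10, 9.58, 9.47 and 9.53 in OVE26 arrays 1 to 5, against 10.04, 9.89, 10.13 and 9.84 in FVB arrays 1 to 4. All OVE26 arrays but OVE26 2 lay below every FVB array. The difference was -0.28 (0.823-fold, 95% interval -0.61 to 0.04; limma, adjusted p = 0.438). The other 2 probe sets gave -0.02 and -0.12 (limma, adjusted p = 0.958 and 0.773).

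Foxo1, the transcription factor that AKT inactivates, had differences near 0 in all 4 probe sets, from -0.03 to 0.07 (limma, adjusted p from 0.912 to 0.978). Its brightest probe set, 1416983_s_at, read 8.87, 8.81, 8.64, 9.39 and 8.91 in OVE26 arrays 1 to 5, against 8.84, 9.01, 8.76 and 8.99 in FVB arrays 1 to 4. The groups overlapped, and OVE26 4 was the highest array of the 9 in 3 of the 4 probe sets. The 95% interval of the brightest probe set ran from -0.32 to 0.37. Without OVE26 4 its difference was -0.09.

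**Figure D2:**
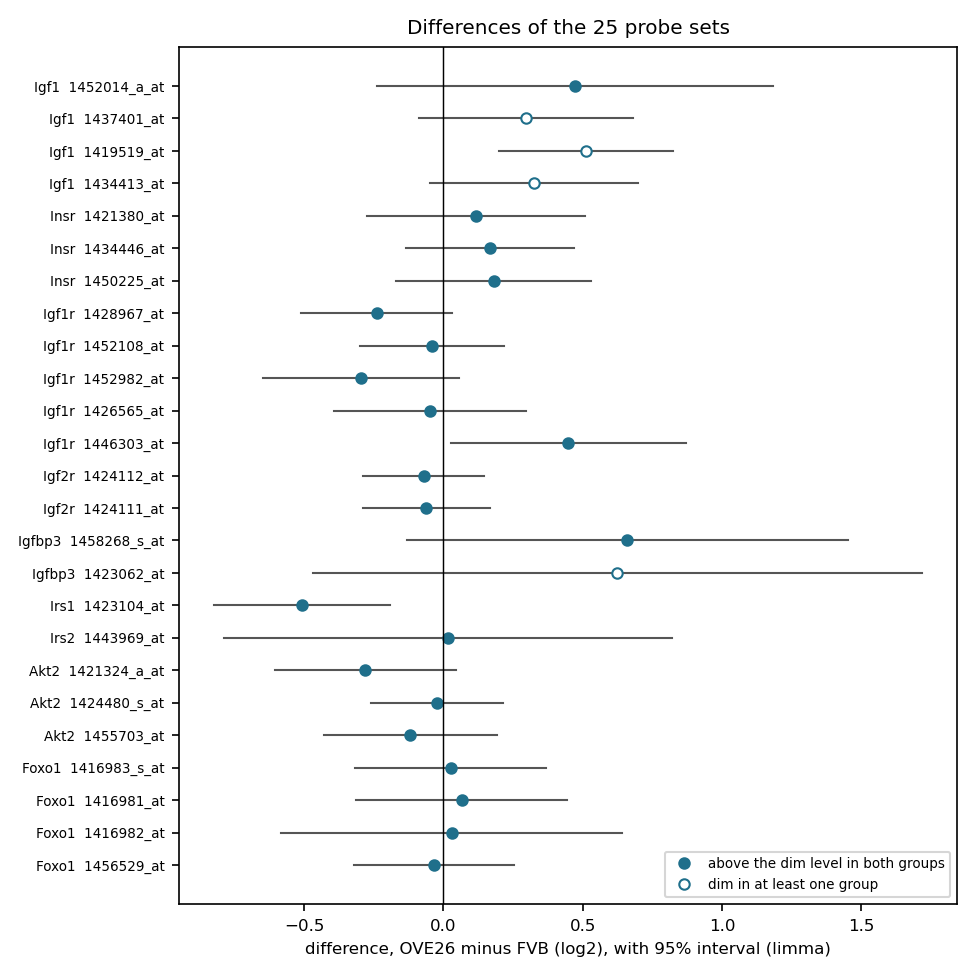
Difference of each of the 25 probe sets, OVE26 minus FVB in log2 units (horizontal axis), with its 95% interval from limma (lines); open circles are probe sets that were dim in at least 1 group. Only the intervals of Irs1, of Igf1 1419519_at (dim in both groups) and of Igf1r 1446303_at leave out 0, and none of the 25 passed after adjustment over all probe sets.

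The array OVE26 4 stood apart within its group for these genes. It was the highest of the 5 OVE26 arrays in 14 of the 25 member probe sets, compared with 21.5% of all probe sets, and several of the 14 read the same gene. They included both Igfbp3 probe sets, Irs2, 3 of 5 probe sets of Igf1r, and 3 of 4 of Foxo1. OVE26 2 was counted the lowest of its group in 9 of the 25, against 21.6% of all probe sets, with ties credited to the lower-numbered array. The 9 include ties with other OVE26 arrays in Igf1 1437401_at (1.98) and 1434413_at (1.55), which were dim in both groups. OVE26 4 and OVE26 2 were at an extreme for some markers of cell types, taken as the mean of marker log2 values centred over the 9 arrays. OVE26 4 had the lowest podocyte mean of all arrays (-0.39) and the highest parietal mean (1.17). Its Tcf21, a podocyte transcription factor, read 8.06 against 10.05 to 11.02 in the other OVE26 arrays. The podocyte mean holds this value and was not taken without it. In OVE26 4 Synpo, Ptpro, Clic5 and Foxc2 were also the lowest of the OVE26 arrays, whereas Wt1 (10.78) and Kirrel (9.29) were the highest. OVE26 2 had the lowest proximal tubule mean (-1.70) and the highest mean for later nephron segments (1.60). The part of these differences in the member values was not tested. The spread between arrays was larger in OVE26 than in FVB mice in 16 of the 25, near the 66.2% found over all probe sets.

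For some members the sign of the difference was not the same in the classes of arrays that Xist defines. The class with Xist above the Y-linked genes holds 3 OVE26 arrays and only 1 FVB array, FVB 2, so its differences rest on 1 normal mouse. The brightest Insr probe set differed by -0.50 in that class and by 0.50 in the other, and the other 2 Insr probe sets were also negative in the first class (-0.17 and -0.04) and positive in the other (0.44 and 0.45). The brightest Foxo1 probe set differed by -0.22 in the class with Xist above and by 0.27 in the other. The brightest Igfbp3 probe set was positive in both classes (0.30 and 1.35), whereas 1423062_at was not (-0.15 and 1.60). The brightest Igf1 probe set differed by 0.00 and 0.91, and its other 3, dim in both groups, were positive in both classes. Irs2 differed by -0.04 and 0.34. The brightest probe sets of Igf1r (-0.12 and -0.24) and Akt2 (-0.15 and -0.38) were negative in both classes, but others of these genes changed sign, namely Akt2 1424480_s_at (0.17 and -0.12) and 1455703_at (-0.33 and 0.01) and Igf1r 1452108_at (0.02 and -0.02) and 1426565_at (-0.09 and 0.07). OVE26 4 belongs to the class with Xist below. Among FVB arrays, FVB 2 had the highest marker means for glomerular endothelium (0.56), later nephron segments (-0.19) and parietal cells (-0.19). The difference between classes was not tested, and with 1 FVB array in a class it cannot be told apart from that mouse.

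**Figure D3:**
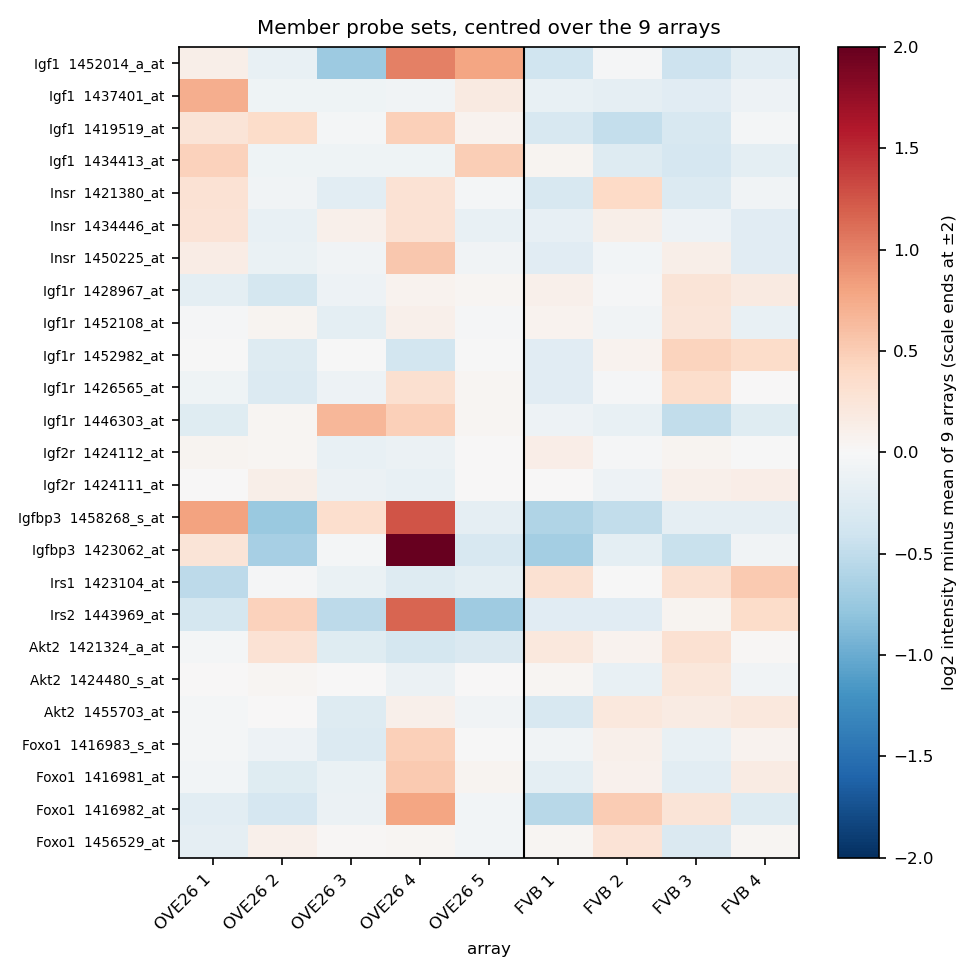
Log2 intensity of the 25 probe sets (rows, by gene) in the 9 arrays (columns, OVE26 left of the line and FVB right), each row minus its own mean; red is above and blue below that mean and the colour scale ends at ±2. The strongest red is in OVE26 4, for Igfbp3, Irs2 and Igf1, and the Irs1 row is blue or near white in OVE26 arrays and red in 3 FVB arrays.

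The wider pathway was described over a list of 87 genes in 11 roles, of which 76 were measured and the others are not analysed here. These counts rest on 1 value a gene, its brightest probe set, with limma over 18193 genes. In the list 1 gene rose (Pdk4) and 1 fell (Trib3), and 74 did not pass, while 0.473% of all genes were called higher and 0.132% lower. An unadjusted p under 0.05 was reached by 17 of the 76 (22.4%), against 15.1% of all genes, and the groups did not overlap in 9 (11.8%), against 6.26%. The list was made with earlier results of these data known. These shares, and those by role below, therefore do not say whether the pathway changed more than other genes. The 9 were Pdk4, Ccng2, Txnip and Igfbp7, higher in OVE26 arrays, and Trib3, Igfbp5, Irs1, Gab1 and Grb2, lower in them. The median difference of the list was 0.02, and that of all genes was 0.01.

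Pdk4, the kinase that shuts off pyruvate dehydrogenase and that FOXO factors are known to induce, read 8.90, 9.65, 8.69, 9.97 and 8.20 in OVE26 arrays 1 to 5, against 5.19, 6.16, 6.30 and 5.45 in FVB arrays 1 to 4. Every OVE26 array was above every FVB array, with a difference of 3.31 (SE 0.37; limma, adjusted p = 0.00978). OVE26 4 and OVE26 2, the arrays with the highest Irs2, also had the highest Pdk4. Other genes listed as FOXO-regulated did not share this order. In OVE26 2 Klf15 (6.45), Sesn3 (7.42) and Ccng2 (6.93) were the lowest of the OVE26 arrays, whereas Cdkn1b (9.22) was the highest. Whether such genes vary together was not tested. Trib3, a pseudokinase reported to bind and inhibit AKT, read 7.75, 8.64, 8.36, 8.03 and 7.92 in OVE26 arrays 1 to 5, against 9.37, 9.25, 9.40 and 10.08 in FVB arrays 1 to 4. It fell by 1.38 on the log2 scale (SE 0.22; limma, adjusted p = 0.029), and missed the threshold in 7 of 9 fits with 1 array left out (adjusted p from 0.0135 to 0.152 over all alternatives by limma).

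Among the ligands, 0 of 3 measured genes passed, and Igf2, a fetal growth factor, differed by 0.29 (limma, adjusted p = 0.828). Among the receptors 0 of 4 passed. Of 10 IGF binding proteins and their proteases 0 passed. Igfbp5, which binds IGFs in the matrix, read 9.92, 11.02, 10.78, 9.74 and 11.22 in OVE26 arrays, against 11.83, 12.07, 11.44 and 11.85 in FVB arrays. The groups did not overlap and the difference was -1.26 (SE 0.31; limma, adjusted p = 0.103), larger in size than that of any member. With the sex covariate it was -1.57 and passed (limma, adjusted p = 0.0269). Pappa, the protease that cuts IGF binding proteins, differed by 0.84 (limma, adjusted p = 0.289).

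Of 8 adaptors 0 passed, and 3 of them, Irs1, Gab1 and Grb2, had groups that did not overlap, against 6.26% of all genes, each lower in OVE26 arrays. Grb2 was singled out after its values were seen. Gab1, a docking protein that recruits PI3-kinase, read 8.76, 8.56, 8.46, 8.92 and 8.95 in OVE26 arrays, against 9.23, 8.96, 9.49 and 9.44 in FVB arrays, a difference of -0.55 (SE 0.15; limma, adjusted p = 0.124). Of 8 genes listed as inhibitors of the receptor and its adaptors, Trib3 fell and 7 did not pass. Trib3 was placed in this role by the list, although it is reported to act on AKT. Socs3, a feedback inhibitor induced by cytokines that also targets IRS proteins, differed by 1.55 (SE 0.51; limma, adjusted p = 0.185), and Grb14, an adaptor that blocks the insulin receptor kinase, by 1.51 (SE 0.45; limma, adjusted p = 0.154). The other probe set of Grb14 differed by 0.25, and the mean over both by 0.88 (limma, adjusted p = 0.129). Socs3 and Grb14 had overlapping groups, and OVE26 4 was the highest array for Socs3 (10.74).

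Of 7 genes of PI3-kinase and its lipid phosphatases 0 passed and 6 were below 0, led by the catalytic subunit Pik3cb (-0.56; limma, adjusted p = 0.191) and Inppl1, the SHIP2 lipid phosphatase (-0.45; limma, adjusted p = 0.24). Of 8 genes listed under AKT and its direct regulators 0 passed, and this role also holds genes that do not regulate AKT, such as Slc2a4. Slc2a4, the insulin-regulated glucose transporter GLUT4, differed by 0.49 (limma, adjusted p = 0.215) and Pdpk1, the kinase that activates AKT, by -0.39 (limma, adjusted p = 0.242). Of 10 genes of the mTOR branch 0 passed, and the mTOR inhibitor Deptor differed by 0.67 (limma, adjusted p = 0.261), or by 0.96 without FVB 2 (limma, adjusted p = 0.0253), and Eif4ebp1, a repressor of translation that mTOR inactivates, by -0.26 (limma, adjusted p = 0.581). Their probe sets were unlike in size: the mean over 6 probe sets of Deptor differed by 0.35 (limma, adjusted p = 0.33), and the mean over 3 of Eif4ebp1 by -0.49 (limma, adjusted p = 0.167). Of 3 FOXO factors 0 passed, with Foxo4 at 0.08 (limma, adjusted p = 0.931). Of 13 FOXO-regulated genes, Pdk4 rose and 12 did not pass, with a median difference of 0.43, against 0.01 over all genes. Of the 13, 10 were above 0, against 52.6% of all genes. The median of 0.43 is the difference of Klf15, which read 9.57 in OVE26 4, against 6.45 to 7.45 in the other OVE26 arrays. The median and the count were not taken without OVE26 4. Pck1, 1 of the 13, is also among the proximal tubule markers used below. Pck1 and G6pc had their lowest readings of all arrays (6.70 and 5.07) in OVE26 2, the array with the lowest proximal tubule mean. The part of tubule cells in these values was not tested. Among the FOXO-regulated genes, Ccng2, an unconventional cyclin, differed by 0.47 (limma, adjusted p = 0.182). Txnip, an inhibitor of glucose uptake that high glucose induces, differed by 0.63 (limma, adjusted p = 0.224). Of 2 genes of the RAS-MAPK branch 0 passed, with the kinase Map2k2 at 0.22 (limma, adjusted p = 0.411) and Map2k1 at -0.05 (limma, adjusted p = 0.909).

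**Figure D4:**
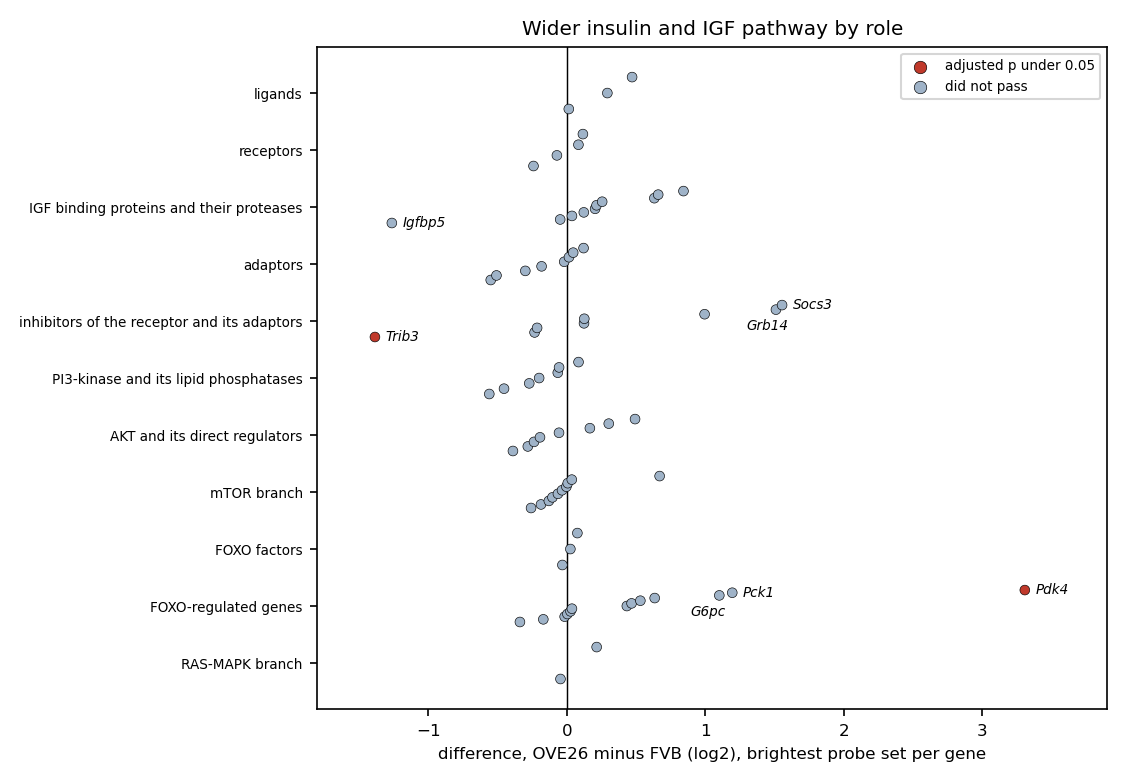
Difference of 76 genes of the insulin and IGF pathway, OVE26 minus FVB in log2 units (horizontal axis, brightest probe set of each gene), in rows by role; points within a row are spread vertically in order of their value. Red points passed an adjusted p of 0.05 by limma and names are given to these and to genes beyond 1 log2 unit. Pdk4 at 3.31 and Trib3 at -1.38 are the red points.

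Some genes outside the pathway ran close to the members over the 9 arrays, as measured by the root mean square difference between profiles centred on their own means, among 10909 genes at or above the 40th percentile. The arrays are shared, so likeness also holds whatever the arrays have in common, and it is given as a description. The nearest profiles to Irs1 were those of Tob1, an antiproliferative protein, at 0.10, and of the zinc finger gene Hivep1 at 0.10. Those nearest to Irs2 were Slc25a33, a mitochondrial nucleotide carrier, at 0.20 and Rin3 at 0.26. Nearest to Foxo1 were Mdm2, the ubiquitin ligase of p53, and Ypel3, both at 0.10, and to Igfbp3 the nucleoporin gene Nup50 at 0.25 and the lipogenic factor gene Srebf1 at 0.26. For Igf1 the nearest were Fbln5, an elastic fibre protein, at 0.27 and Ube2u at 0.28. For the receptors and Akt2 the distances were 0.12 and 0.14 (Insr, to Osbpl2 and Fbxl12), 0.06 and 0.06 (Igf1r, to Ptbp1 and Thra), 0.03 and 0.04 (Igf2r, to Rab1b and Ccdc50) and 0.07 and 0.07 (Akt2, to Mob1a and Ubqln1). A member that varies little has small distances, and the SD over the 9 arrays was 0.09 for Igf2r and 0.67 for Igfbp3. The distances thus do not rank likeness of pattern: Pearson r was 0.93 for Igf2r with Rab1b and 0.96 for Igfbp3 with Nup50.

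Markers checked the labelled cell type. Of 15 podocyte markers 12 were measured, none was dim in either group, and their summed level ran from 15.11 to 15.46 in OVE26 arrays and from 15.38 to 15.54 in FVB arrays on the log2 scale. All but 1 of the 12 were below 0 in the comparison, with a median of -0.29. In sorted cells, fewer podocytes and less RNA per podocyte cannot be told apart. All 16 measured markers of later nephron segments (loop of Henle, distal tubule, collecting duct) were positive in the comparison (median 1.38; summed level 12.36 to 13.48 in OVE26 and 11.03 to 12.97 in FVB arrays), as were all 6 parietal markers (median 1.56; 11.53 to 12.41 in OVE26 and 10.67 to 11.71 in FVB arrays). Of 16 macrophage markers 13 were positive (median 0.32; summed level 9.42 to 11.09 in OVE26 and 9.65 to 10.05 in FVB arrays), and Adgre1, Itgam, C1qc and Ms4a7 were dim in both groups. Other macrophage markers were above the dim level and higher on average in OVE26 arrays, with Ctss at 7.86 in OVE26 and 5.24 in FVB arrays, Lyz2 at 7.79 and 6.37, and Tyrobp at 6.48 and 5.06, and C1qb was 5.29 in OVE26 arrays and dim in FVB arrays (2.99). Mrc1 was lower in OVE26 arrays (6.75, against 8.10 in FVB), and Csf1r was 8.35 in OVE26 and 8.32 in FVB arrays. Of 10 mesangial and smooth muscle markers 3 were positive (median -0.20; 11.87 to 12.64 in OVE26 and 11.82 to 12.71 in FVB arrays), of 12 glomerular endothelial markers 4 (median -0.21; 11.81 to 12.86 in OVE26 and 12.04 to 13.07 in FVB arrays), and of 13 proximal tubule markers 7 (median 0.10; 10.76 to 13.17 in OVE26 and 12.37 to 13.48 in FVB arrays). The part of these cells in the values of Irs1, Irs2, Igf1, Igfbp3, Pdk4, Socs3 and the other genes above was not tested.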

How the data were processed

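Podocyte RNA from 5 OVE26 and 4 FVB mice was measured on 9 arrays. Each deposited number is the intensity of 1 probe set, read as linear because of its range, made by the authors with RMA and Partek per the submitters' processing notes (versions and settings not given in the sources used here), and log2 was taken here. The labels give 1 mouse an array and no batch, and p-values rest on the spread between these arrays, whose number limits the precision (median SE of a difference 0.17). Median log2 intensity ran from 5.07 to 5.15 over the arrays. No array copied another, with at most 4.08% identical values.

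Of 45101 probe sets 64 controls were left out. Symbols came from the platform annotation: 34945 probe sets have 1 symbol (34741 matched to RefSeq, 0 updated), 932 several and 9160 none. The groups were compared by moderated linear models (limma 3.58.1, run in R 4.3.3, all arrays, 2-sided), with Benjamini-Hochberg adjustment over 45037 probe sets for members and over 18193 genes (brightest probe set) for the pathway. The fit was tested on simulated data.

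Members, lists and named genes were chosen with earlier results of these data known. Named were all members, pathway genes that passed, 2 further genes a role by smallest p, and the 2 nearest profiles a member. Grb2 and Igfbp7 were named because their groups did not overlap, after their values were seen. Klf15, Sesn3 and Cdkn1b were named for their readings in single arrays, also after these were seen. The promoter search was also added after the values were seen. RefSeq promoters on GRCm38.p6 matched 8 of the 9 members. Alternatives were other feature summaries, a filter on dim features, normalizations, variance models, a replicate block, a sex covariate, thresholds and leaving out arrays. Same-numbered arrays of the groups did not deviate together, so the numbers were not taken to pair mice.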

Additional observations from a re-analysis of the deposited data

Results flagged for a closer look

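Groups of arrays were examined over member probe sets and over pathway genes named because they passed or by smallest p. Of 88 such groups, 6 had 1 array set apart from the others by a gap that is large for the group's range. By chance about 1 in 20 groups is set apart. OVE26 4 was the highest of its group for Foxo1 probe set 1416982_at (7.17) and for Txnip (11.44). It was the lowest for Akt2 probe set 1424480_s_at (6.49), where OVE26 1, 3 and 5 read the same value (6.62) and OVE26 2 read 6.64. The share given for chance does not allow for such ties. FVB 1 was the lowest of its group for Akt2 probe set 1455703_at (4.82). OVE26 3 was the highest for Map2k2 (8.30) and OVE26 2 the lowest for Map2k1 (7.87). None of these probe sets passed in the comparison of the groups.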

How the results depend on the processing

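The count of member probe sets that passed was 0 in each direction under every alternative, over 452 member results, with a lowest adjusted p of 0.0852 (limma); 17 of the 25 kept their sign throughout. In the pathway, the count higher was 1, with 0 without variance moderation, 2 (G6pc and Pdk4) without OVE26 2 and 4 together, and 1 to 3 with 1 array left out (3 without FVB 2, Deptor, Pdk4 and Ptprf; 2 without OVE26 2). The count lower was 1, with 0 without moderation, at a threshold of 0.01 and with the replicate block, and 0 to 1 with 1 array left out; with the sex covariate it was 1, Igfbp5 and not Trib3.

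Some differences turned sign. Without OVE26 2 and 4 together they were -0.092 (Foxo1 1416983_s_at), -0.0080 (Foxo1 1416981_at), -0.11 (Foxo1 1416982_at), -0.52 (Irs2), -0.19 (Foxo4) and 0.016 (Map2k1). Irs2 was -0.0020 with quantile normalization and -0.26 with array weights. With the sex covariate Igf1r 1426565_at was 0.014 and Igf2 -0.087. Foxo4 was -0.023 with median centring and -0.071 as a mean of its probe sets. With the replicate block Igf2 was -0.0025. With 1 array left out the ranges were -0.076 to 0.049 (Akt2 1424480_s_at), -0.059 to 0.14 (Foxo1 1416981_at), -0.16 to 0.20 (Foxo1 1416982_at), -0.091 to 0.098 (Foxo1 1416983_s_at), -0.13 to 0.052 (Foxo1 1456529_at), -0.13 to 0.060 (Igf1r 1426565_at), -0.097 to 0.035 (Igf1r 1452108_at), -0.27 to 0.20 (Irs2), -0.062 to 0.23 (Foxo4), -0.0025 to 0.61 (Igf2) and -0.095 to 0.024 (Map2k1). The cause was not tested. Over all features the replicate block left 0 probe sets called in either direction and 19 genes higher and 0 lower, and the numbers are not known to pair mice. Dropping moderation also left 0 probe sets called. With 1 array left out, calls over all probe sets ranged from 0 to 323 higher and from 0 to 101 lower. Signal near background limits Igf1 and Igfbp3.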

Other observations

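The annotation of 1 probe set, 1440979_at, names both Igf2r and Airn, the antisense transcript known to silence the paternal Igf2r allele, so it was not counted among the members. It read 5.34, 5.25, 5.34, 5.28 and 5.16 in OVE26 arrays 1 to 5, against 5.48, 5.37, 5.60 and 5.35 in FVB arrays 1 to 4. The difference was -0.18 (limma, adjusted p = 0.481), and which of the 2 transcripts it reads was not tested.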
